A study of Rattus norvegicus with 24 samples.

Results

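Sesn2, Depp1, Atf4 and Gdf15 are genes that cells use to answer shortage of amino acids and of growth signals. They were chosen by their differences between the same groups in an earlier look at these arrays, so their differences are given as a description with limma's standard errors (SE) and without p-values. All probes whose only gene symbol was one of these were taken, which gave 5 of 31099 probes, 2 of them for Sesn2, and 4 of the 14218 genes with a probe of 1 symbol. RNA of microvessels from rat brain cortex was hybridised to 24 arrays, 8 in each of 3 groups. In HAL rats, portal blood had been led past the liver (portocaval anastomosis, PCA) and the hepatic artery was tied 24 h later, so the liver stayed in place. In HEP rats the same anastomosis was followed after 24 h by removal of the whole liver, so no liver tissue was left. Sham rats had a mock operation in 2 steps. Microvessels were taken 8 to 12 h after the second operation, and HAL and HEP are both models of acute liver failure. The labels give no strain, sex or age and leave it unsaid whether every array came from its own rat, so any p-value measures the spread between arrays.

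Cells that run short of amino acids, or that are under other stress, phosphorylate the translation factor eIF2. This slows protein synthesis in general but raises translation of Atf4, a transcription factor that switches on genes for amino acid uptake and synthesis. Sesn2 encodes sestrin 2, a leucine sensor whose gene is a known target of ATF4 and of p53 and which holds back the growth kinase complex mTORC1 through the GATOR complexes. Depp1 encodes a small protein known as a target of FOXO transcription factors, which enter the nucleus when insulin and growth factor signals fall. Gdf15 encodes a secreted stress hormone that acts on a receptor in the hindbrain and is also a known target of ATF4, its relative CHOP and p53.

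The genes lie on 4 chromosomes of the RefSeq assembly GRCr8. Sesn2 spans chr5:149986304-150005255, Depp1 chr4:151583105-151585455, Atf4 chr7:113684681-113686739 and Gdf15 chr16:18838436-18842022. Their promoter windows, 250 bases before to 50 bases after the start of transcription as RefSeq gives them for GRCr8, are shown because binding motifs of ATF4 and FOXO can be looked for in them. The windows are chr4:151583121-151583420 (plus strand) for Depp1, chr5:150005206-150005505 (minus strand) for Sesn2, chr7:113684431-113684730 (plus strand) for Atf4, and chr16:18838186-18838485 and chr16:18839015-18839314 (plus strand) for 2 annotated starts of Gdf15. The Depp1 window belongs to a start inside the annotated span of the gene. Each reads 5′ to 3′ on the strand of the gene, and capitals mark a match to a searched motif.
Depp1: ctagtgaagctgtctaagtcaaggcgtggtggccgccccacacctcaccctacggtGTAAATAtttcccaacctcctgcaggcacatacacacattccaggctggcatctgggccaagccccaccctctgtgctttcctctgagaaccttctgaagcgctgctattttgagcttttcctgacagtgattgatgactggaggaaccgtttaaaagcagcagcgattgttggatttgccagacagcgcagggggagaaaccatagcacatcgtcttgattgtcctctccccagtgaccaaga
Sesn2: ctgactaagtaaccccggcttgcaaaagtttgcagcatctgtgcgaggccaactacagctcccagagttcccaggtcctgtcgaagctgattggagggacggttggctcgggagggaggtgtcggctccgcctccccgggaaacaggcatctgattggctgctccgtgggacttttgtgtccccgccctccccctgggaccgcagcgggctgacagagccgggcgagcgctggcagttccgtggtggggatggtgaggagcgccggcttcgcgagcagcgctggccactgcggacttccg
Atf4: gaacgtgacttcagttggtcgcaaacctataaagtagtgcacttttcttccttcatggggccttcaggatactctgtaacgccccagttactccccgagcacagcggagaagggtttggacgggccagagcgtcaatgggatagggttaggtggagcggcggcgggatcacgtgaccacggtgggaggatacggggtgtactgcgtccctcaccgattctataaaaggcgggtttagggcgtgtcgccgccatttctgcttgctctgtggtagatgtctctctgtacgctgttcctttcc
Gdf15 first start site: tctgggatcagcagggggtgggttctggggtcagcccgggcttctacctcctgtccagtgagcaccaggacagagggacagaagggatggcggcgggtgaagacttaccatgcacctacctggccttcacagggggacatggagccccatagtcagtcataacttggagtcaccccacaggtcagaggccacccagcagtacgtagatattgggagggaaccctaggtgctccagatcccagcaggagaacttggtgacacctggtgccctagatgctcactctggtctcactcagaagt
Gdf15 second start site: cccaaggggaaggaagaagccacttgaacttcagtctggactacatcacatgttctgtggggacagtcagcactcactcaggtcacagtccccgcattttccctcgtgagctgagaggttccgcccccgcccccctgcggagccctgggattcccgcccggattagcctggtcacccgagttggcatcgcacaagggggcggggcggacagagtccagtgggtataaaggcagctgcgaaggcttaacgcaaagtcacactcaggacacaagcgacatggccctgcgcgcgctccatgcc

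Motifs were searched on both strands. The joint element of ATF4 and CEBP factors, TGATGNAAT, was in 1.09% of all 33469 promoter windows and in none of these 5. The FOXO core GTAAACA was in 3.78% of all windows, and the short core TGACGT, which CREB and ATF factors bind, in 7.94%, and neither was in these 5. A FOXO core with a changed base, GTAAATA, was added to the search after the windows had been seen and was in 3.51% of all windows. It matched the Depp1 window at position -194, counted from the start of transcription, and the other 4 windows nowhere. A match is a description of letters and not a binding site, and these short windows leave out sites further away or inside the gene.

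The values can be read only in part. The table as provided here holds the decimals of the log2 signals and not the whole number in front of them. A signal below 10 has 9 decimals and a signal from 10 on has 8, so probes with 1 to 14 cells of 9 digits among the 24 arrays were taken to lie near 10. In these probes the whole number in front was set to 9 for cells of 9 digits and to 10 for cells of 8 digits, and the value so obtained is called the reading. Shorter cells are left unread. A signal below 10 with a 0 just after the point or at the end of its decimals loses a digit as well, and its reading comes out too high. For this reason the digits of each probe were also set against a model with all signals below 10. The log10 likelihood ratio of the 2 models is positive where signals near 10 fit the digits better. Both models let each group have its own mean, over a wider range in the model near 10. Below 10 the range was narrower, and there a shift by a whole unit leaves the decimals the same.

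By this measure the digits of Depp1, Atf4 and, less so, Sesn2 fitted signals near 10 better, and those of Gdf15 did not. The ratio can be raised by a difference in digits between the groups, since each group has its own mean, and this touches Depp1 and Sesn2. Depp1 had 6 cells of 9 digits and a log10 ratio of 11.4, the highest of the 98 probes with that number of such cells, of which 97 were above 0. The means fitted to Depp1 reached 11.92 in HAL and 11.80 in HEP, beyond what the reading can hold. Atf4 had 7 such cells and a ratio of 9.39, against a positive ratio in 90 of 95 probes of that number. Sesn2 had 13 such cells on its first probe and a ratio of 3.83. Of the 369 probes with 13 such cells, 129 (35.0%) had a ratio above 0, and 45 (12.2%) had a ratio at least as high as Sesn2. Gdf15 had 12 such cells and a ratio of -2.02, and 104 of 245 probes with that number were above 0. The second Sesn2 probe had 20 such cells and lay below 10, where only the decimals are known.

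**Figure D1:**
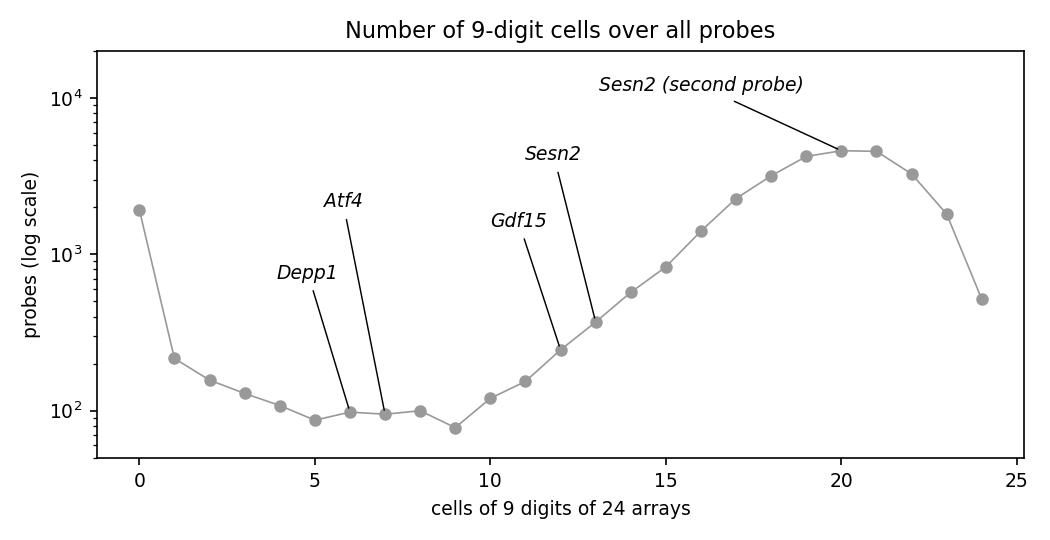
Number of probes (points, log axis) by the number of cells of 9 digits among the 24 arrays, with the 5 probes marked. Depp1 and Atf4 lie in the sparse middle of the distribution, at 6 and 7 cells, while Gdf15 and the first Sesn2 probe, at 12 and 13, lie on the flank of the large group of probes below 10 that holds the second Sesn2 probe at 20.

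**Figure D2:**
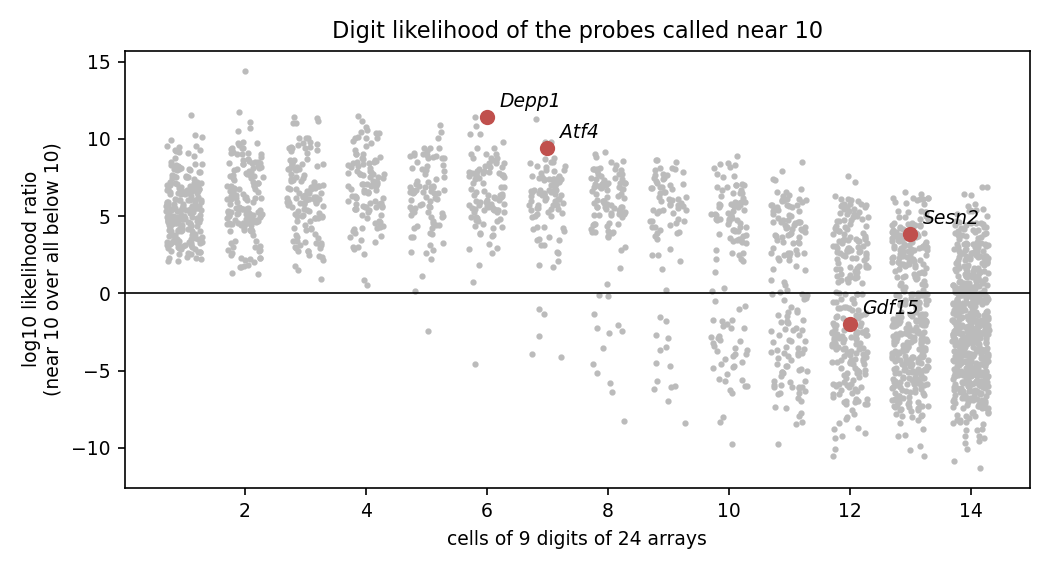
Log10 likelihood ratio of signals near 10 over signals all below 10 for each of the 2527 probes taken as near 10 (grey points, spread sideways for view), by their number of cells of 9 digits. Depp1 (11.4) and Atf4 (9.39) lie at or near the top of their columns, Sesn2 (3.83) is above 0 in a column where most probes are below it, and Gdf15 (-2.02) is below 0.

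Depp1, the FOXO target, had higher readings in both models of liver failure than in Sham. The readings ran from 10.13 over a median of 10.71 to 10.86 on 6 HAL arrays, from 10.67 over 10.75 to 10.97 on 7 HEP arrays, and from 9.30 over 9.81 to 10.88 on 8 Sham arrays. All HAL and HEP arrays that could be read were at 10 or above, 6 of 6 and 7 of 7, against 2 of 8 Sham arrays. The groups still overlapped, because the Sham array of replicate 2 read 10.88, within the range of HEP and above that of HAL. Its cell of 8 digits could also be a signal from 9 to 10 that lost a 0. The mean reading was 10.57 ± 0.35 in HAL (SD, n = 6), 10.78 ± 0.11 in HEP (SD, n = 7) and 9.86 ± 0.48 in Sham (SD, n = 8). HAL was higher than Sham by 0.71 (SE 0.19) on the log2 scale.

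HEP was higher than Sham in Depp1 by 0.92 (SE 0.18), and HEP minus HAL was 0.21 (SE 0.20), about as much as its error. Of the 1738 genes tested near 10, ordered from the highest difference down, Depp1 was number 23 in HAL minus Sham and number 5 in HEP minus Sham. In Depp1 8 of 8 HAL cells and 8 of 8 HEP cells had fewer than 9 digits, against 2 of 8 Sham cells, and the readings are set from these same digits. The 2 HAL cells and 1 HEP cell too short to be read are among them. Depp1 came into the near-10 range through Sham, the group with its 6 cells of 9 digits. The size of the difference is less certain, because a cell of 8 digits can stand for 10 or for 11 plus its decimals. It can also be a signal from 9 to 10 that lost a 0, so the numbers of arrays at 10 or above are uncertain too. The digit model put the mean at 9.74 in Sham, which with the HAL and HEP means above gives differences of 2.18 in HAL minus Sham, 2.06 in HEP minus Sham and -0.12 in HEP minus HAL. The size of the differences from Sham and the sign of HEP minus HAL thus depend on the whole number given to the cells of 8 digits. In the unwrapped reading, which places the decimals of each array as near as possible to the mean of all arrays, HAL averaged 0.91 ± 0.18 (SD, n = 8). The 7 HEP arrays averaged 0.78 ± 0.11 (SD), both above an unknown whole number. Such placing draws arrays together by itself. The resultant length of Depp1, which is 1 when all arrays agree, was 0.49, under the limit of 0.6 set for this reading. With every Depp1 cell read as below 10, which its digits fit worse, HAL minus Sham was 0.02 (SE 0.09) and HEP minus Sham was -0.06 (SE 0.09), of the opposite sign.

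Sesn2, the leucine sensor, had higher readings in HEP than in HAL or Sham on its first probe, but the second probe did not show it. Readings of the first probe ran from 9.12 over a median of 9.61 to 10.55 on 7 HAL arrays, from 9.77 over 10.47 to 10.71 on 8 HEP arrays, and from 9.12 over 9.32 to 10.59 on 8 Sham arrays. Signals of 10 or above were read on 1 of 7 HAL, 7 of 8 HEP and 2 of 8 Sham arrays. The ranges overlapped, since 1 HEP array was low and 1 HAL and 2 Sham arrays were high. The mean reading was 9.58 ± 0.49 in HAL (SD, n = 7), 10.41 ± 0.30 in HEP (SD, n = 8) and 9.57 ± 0.56 in Sham (SD, n = 8). HEP was higher than Sham by 0.83 (SE 0.22) and higher than HAL by 0.82 (SE 0.23). HAL minus Sham was 0.01 (SE 0.23). Sesn2 was number 10 of 1738 genes in HEP minus Sham and number 2 in HEP minus HAL. It came into the near-10 range through HEP, which held 7 of its 11 cells under 9 digits, so a high place in this order follows in part from the way genes entered it.

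These Sesn2 differences rest on the reading of the cells of 8 digits. With all cells of the first probe read as signals below 10, each placed where it is nearest to the other arrays, the mean decimals were -0.05 ± 0.27 in HAL, 0.01 ± 0.10 in HEP and 0.11 ± 0.21 in Sham (SD, n = 8 each). HEP minus Sham was then -0.09 (SE 0.10), of the opposite sign, and HEP minus HAL was 0.06 (SE 0.10). On the second probe the decimals averaged 0.32 ± 0.16 in HAL (SD, n = 7), 0.30 ± 0.06 in HEP (SD, n = 8) and 0.29 ± 0.11 in Sham (SD, n = 8). The differences were 0.02 (SE 0.06) for HAL minus Sham, 0.01 (SE 0.06) for HEP minus Sham and -0.01 (SE 0.06) for HEP minus HAL, each known only up to whole log2 units. With the first probe in its near-10 reading, the 2 probes of Sesn2 thus disagreed unless the signal of the second moved by a whole unit. With the first probe read as below 10 there was no such disagreement. The differences of HEP from Sham and from HAL were then smaller than their SE on both probes. Which of the probes reports the transcript was not tested. Of the cells of the first probe, 2 of 8 in HAL, 7 of 8 in HEP and 2 of 8 in Sham had fewer than 9 digits.

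**Figure D3:**
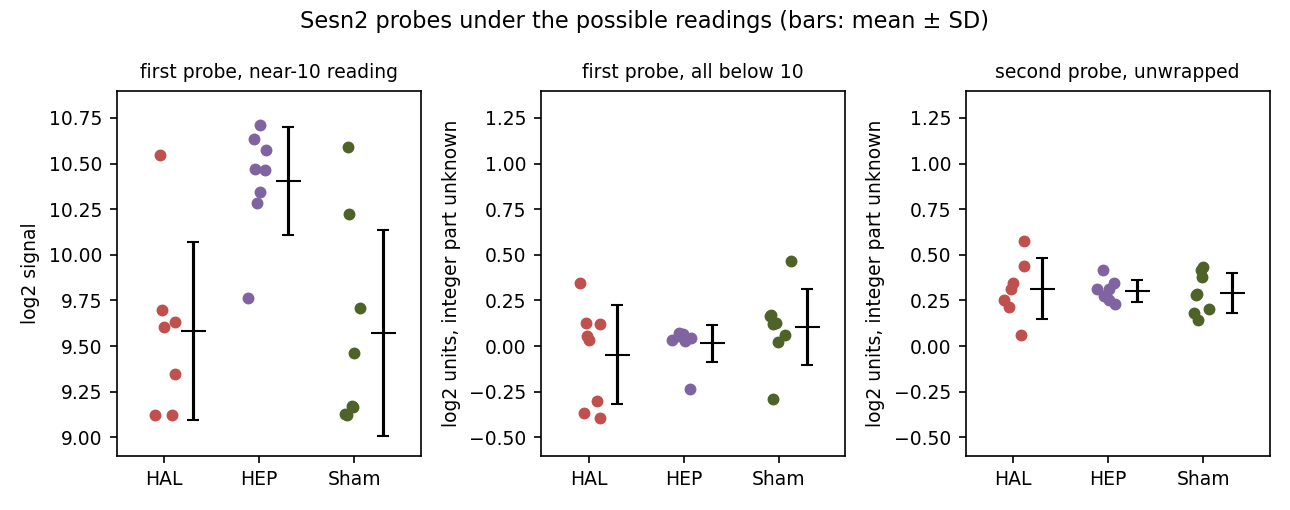
Values of the 2 Sesn2 probes per array (points) with mean and SD (bars) in HAL, HEP and Sham, on log2 axes of equal span. On the left, in the near-10 reading of the first probe, HEP lies above HAL and Sham (10.41, 9.58 and 9.57), while the group means lie close together in the middle, with all cells of that probe read as below 10, and on the right, on the second probe (0.30, 0.32 and 0.29).

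Atf4, the transcription factor upstream of Sesn2 in the amino acid response, had smaller differences than Depp1 and Sesn2 in HEP. Readings ran from 9.68 over a median of 10.24 to 10.42 on 7 HAL arrays, from 9.997 over 10.37 to 10.52 on 7 HEP arrays, and from 9.49 over 10.14 to 10.77 on 7 Sham arrays. The Sham range enclosed both others. The mean reading was 10.09 ± 0.29 in HAL, 10.32 ± 0.19 in HEP and 10.01 ± 0.44 in Sham (SD, n = 7 each). HEP was higher than Sham by 0.31 (SE 0.17) and than HAL by 0.23 (SE 0.17), and HAL minus Sham was 0.08 (SE 0.17). With every cell read as below 10, HAL minus Sham was -0.06, HEP minus Sham 0.03 and HEP minus HAL 0.09 (SE 0.08 each), and unwrapped HEP minus Sham was -0.12 (SE 0.13). Both the size and the sign of these differences thus depended on the reading. Since Atf4 is controlled to a large part in translation, its RNA level is no measure of the protein.

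Gdf15, the secreted stress hormone, had differences whose size and sign depended on how its digits were read. Its near-10 readings ran from 9.16 over a median of 9.81 to 10.96 on 6 HAL arrays. On the 5 HEP arrays that could be read they were 9.76, 9.80, 9.87, 10.88 and 9.66. On 8 Sham arrays they ran from 9.87 over 10.06 to 10.85. The ranges overlapped, and 2 HAL and 3 HEP arrays were unread. HAL minus Sham was -0.37 (SE 0.27), HEP minus Sham was -0.29 (SE 0.28) and HEP minus HAL was 0.09 (SE 0.30). Read as below 10, which its digits fit better, the decimals were 1.00 ± 0.17 in HAL, 0.87 ± 0.13 in HEP and 0.94 ± 0.08 in Sham above an unknown whole number (SD, n = 8 each). HAL minus Sham was then 0.06 (SE 0.07), HEP minus Sham was -0.07 (SE 0.07) and HEP minus HAL was -0.12 (SE 0.07). The signs of HAL minus Sham and of HEP minus HAL differed between the 2 readings.

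**Figure D4:**
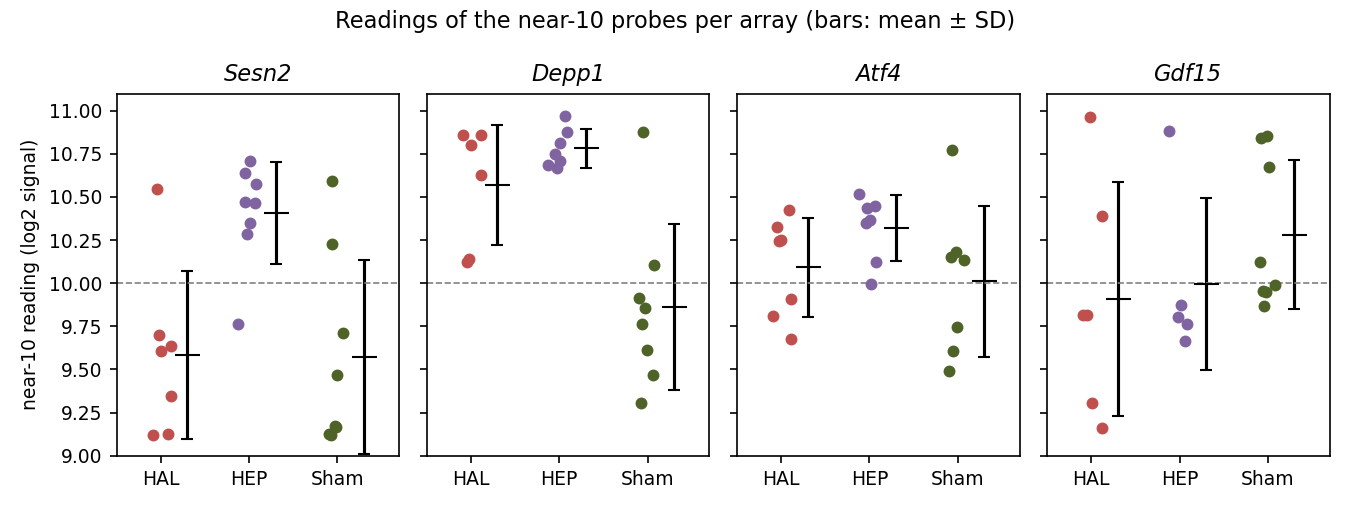
Near-10 readings (log2 signal) of the 4 genes per array (points) with mean and SD (bars) in HAL, HEP and Sham, Sesn2 by its first probe, and the dashed line at 10. Depp1 lies above 10 on all HAL and HEP arrays read and on 2 of 8 Sham arrays. Sesn2 lies above 10 on 7 of 8 HEP, 1 of 7 HAL and 2 of 8 Sham arrays. The groups of all 4 genes overlap, and the side of 10 is set by the number of digits of a cell.

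Across all 1738 genes tested near 10, limma with Benjamini-Hochberg adjustment over them called 66 genes (3.8%) in HAL minus Sham, 49 (2.82%) in HEP minus Sham and 0 (0%) in HEP minus HAL, at an adjusted p of 0.05. At an unadjusted p of 0.05 the numbers were 307, 277 and 161. The 49 became 22 without the HEP array of replicate 7 and 113 without that of replicate 8. The near-10 range takes in probes that cross 10 between groups, so it favours probes that changed there. It also takes in many probes whose digits fit signals below 10 better, so that their readings, calls and places in the order are uncertain. The ratio was above 0 in 216 of 216 probes with 1 cell of 9 digits. With 12, 13 and 14 such cells it was above 0 in 104 of 245, 129 of 369 and 149 of 571. Of the 4 genes, Depp1 was among those called in HAL and Depp1 and Sesn2 among those called in HEP, but the genes were chosen by these very differences and the counts carry no further weight. HAL and HEP were set against the same Sham arrays. The median of the absolute difference over all genes was 0.20 in HAL and 0.19 in HEP. Of the 5435 genes whose decimals clustered well enough to be compared wherever they lie, the unwrapped reading that also served the second Sesn2 probe, limma called 0 (0%) in each comparison and 775, 465 and 412 at an unadjusted p of 0.05, in HAL minus Sham, HEP minus Sham and HEP minus HAL. That reading keeps only probes whose arrays agree, which works against probes that changed.

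The wider pathways around the 4 genes were followed with lists of 154 genes, of which 143 had a probe and 20 were tested near 10. By limma none of the 20 was called in any comparison, where 2, 3 and 3 had an unadjusted p under 0.05 in HAL minus Sham, HEP minus Sham and HEP minus HAL. The median difference of the 20 was -0.03 in HAL and 0.15 in HEP, with 8 and 14 of them above 0, beside medians of -0.04 and 0.01 over all genes tested. In the unwrapped reading 47 of the genes were tested and 0 called, with 3, 6 and 6 at an unadjusted p of 0.05.

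The genes downstream of ATF4 had 4 members tested near 10 of 36 with a probe, and 0 were called. Of these 0 of 4 had a difference above 0 in HAL, with a median of -0.21, and 3 of 4 in HEP, with a median of 0.02. In the unwrapped reading 9 genes of this list were tested and 0 called. There 5 of 9 were above 0 in HAL and 5 of 9 in HEP, against 63.3% and 57.2% of all genes in that reading. The differences that follow are near-10 readings. Slc7a5, a subunit of a transporter for large neutral amino acids, differed by -0.02 (SE 0.18) in HAL and 0.03 (SE 0.17) in HEP. Cebpg and Cebpb, partners of ATF4 at its sites, differed from Sham by -0.21 (SE 0.15) and -0.41 (SE 0.29) in HAL and by -0.04 (SE 0.16) and 0.02 (SE 0.29) in HEP. Sqstm1, the autophagy receptor p62, averaged 9.77 ± 0.46 in HAL (SD, n = 8), 10.33 ± 0.82 in HEP (SD, n = 8) and 9.98 ± 0.48 in Sham (SD, n = 7). Its difference of 0.35 in HEP (SE 0.30, limma adjusted p = 0.642) did not pass the test, and its log10 ratio of -5.01 favours signals below 10. The classic responders Asns, Ddit3, Trib3, Chac1, Atf3 and Atf5 lay below 10, where no level was read, and Ddit4, another inhibitor of mTORC1 signalling, was at 10 or above on all arrays.

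The aminoacyl tRNA synthetases, which load amino acids on to tRNA and many of which ATF4 raises, had 2 members tested near 10 of 19 with a probe. Rars1 averaged 10.08 ± 0.20 in HAL (SD, n = 5), 10.34 ± 0.12 in HEP (SD, n = 6) and 10.17 ± 0.20 in Sham (SD, n = 5), a difference of 0.18 (SE 0.14, limma adjusted p = 0.604) in HEP. Aars1 differed by 0.27 (SE 0.23) in HEP. Neither passed the test. In the unwrapped reading 11 synthetases were tested and 0 called. Of these, 3 were above 0 in HAL and 8 in HEP, against 63.3% and 57.2% of all genes in that reading. Of the factors around eIF2 itself, 4 of 15 were tested near 10. Eif2s3, a subunit of eIF2, averaged 10.34 ± 0.26 in HAL (SD, n = 7), 10.46 ± 0.21 in HEP (SD, n = 7) and 10.21 ± 0.37 in Sham (SD, n = 6). Its HEP difference was 0.25 (SE 0.17, limma adjusted p = 0.536). In the unwrapped reading 5 of these factors were tested and 0 called, with 3 above 0 in HAL and 5 in HEP.

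The list of sestrins, GATOR, Rag and mTORC1 genes, through which Sesn2 acts, had 4 tested members of 35 with a probe, and 0 were called. All 4 had differences below 0 in both models, also with arrays centred on their median. Without centring, 43.3% of all genes tested near 10 were above 0 in HAL and 51.0% in HEP. In HEP Fnip1 differed by only -0.01 (SE 0.24) and Seh1l by -0.007 (SE 0.16), and in HAL by -0.03 (SE 0.24) and -0.05 (SE 0.16). Lamtor3, part of the Ragulator complex that anchors the Rag proteins to the lysosome, averaged 10.005 ± 0.38 in HAL (SD, n = 7), 10.10 ± 0.15 in HEP (SD, n = 8) and 10.25 ± 0.10 in Sham (SD, n = 7). The difference was -0.25 (SE 0.14, limma adjusted p = 0.352) in HAL and -0.15 (SE 0.13, limma adjusted p = 0.66) in HEP. Without the HAL array of replicate 5 the HAL difference was -0.38 (SE 0.10, limma adjusted p = 0.0377), so 1 array decides that call. Rragc, a Rag protein, differed by -0.31 (SE 0.15, limma adjusted p = 0.266) in HAL. The other sestrins, Sesn1 and Sesn3, lay below 10. In the unwrapped reading 13 genes of this list were tested and 0 called. Of these, 4 were above 0 in HAL and 5 in HEP, against 63.3% and 57.2% of all genes in that reading. There Sesn1 differed by 0.05 (SE 0.07) in HAL and 0.03 (SE 0.07) in HEP, and Sesn3 by -0.06 (SE 0.07) and 0.06 (SE 0.07).

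The FOXO list, to which Depp1 belongs by function, had 5 tested members of 27 with a probe, and 0 were called. All 5 had differences above 0 in HEP, with a median of 0.34, and 4 of 5 in HAL, with a median of 0.22, while 51.0% and 43.3% of all genes tested near 10 were above 0 in HEP and HAL. In the unwrapped reading, which takes other genes and can take other probes, 3 of 7 FOXO genes were above 0 in HEP, with a median of -0.01, and 5 of 7 in HAL, with a median of 0.04, against 57.2% and 63.3% of all 5435 genes. Pik3ip1, an inhibitor of PI3 kinase, averaged 9.79 ± 0.27 in HAL (SD, n = 6), 10.06 ± 0.44 in HEP (SD, n = 6) and 9.57 ± 0.41 in Sham (SD, n = 8). Its HEP difference was 0.49 (SE 0.20, limma adjusted p = 0.225), and 0.02 (SE 0.06) in the unwrapped reading. Bnip3, a receptor for removal of mitochondria, differed by 0.37 (SE 0.18, limma adjusted p = 0.306) in HEP and 0.31 (SE 0.15, limma adjusted p = 0.295) in HAL. Klf2, a transcription factor of endothelial cells, differed by 0.34 (SE 0.21, limma adjusted p = 0.472) in HEP and 0.17 (SE 0.19) in HAL. In the unwrapped reading it differed by 0.18 (SE 0.06, limma adjusted p = 0.347) in HEP and 0.14 (SE 0.06, limma adjusted p = 0.292) in HAL. Foxo1 and Foxo4 lay below 10, and Txnip and 1 of 3 probes of Foxo3 were at 10 or above on all arrays.

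Of the p53 targets 1 of 12 with a probe was tested near 10. In the unwrapped reading 3 were tested and 0 called. All 3 were above 0 in HAL and in HEP there, against 63.3% and 57.2% of all genes in that reading. Cdkn1a, the cell cycle inhibitor p21, was at 10 or above on 6 of 6 HAL, 7 of 7 HEP and 6 of 7 Sham arrays. It averaged 10.67 ± 0.33 in HAL (SD, n = 6), 10.62 ± 0.25 in HEP (SD, n = 7) and 10.22 ± 0.43 in Sham (SD, n = 7). The difference was 0.46 (SE 0.19, limma adjusted p = 0.208) in HAL and 0.40 (SE 0.18, limma adjusted p = 0.289) in HEP. Of the GDF15 receptor list of 2 genes 1 had a probe, and 0 were tested.

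**Figure D5:**
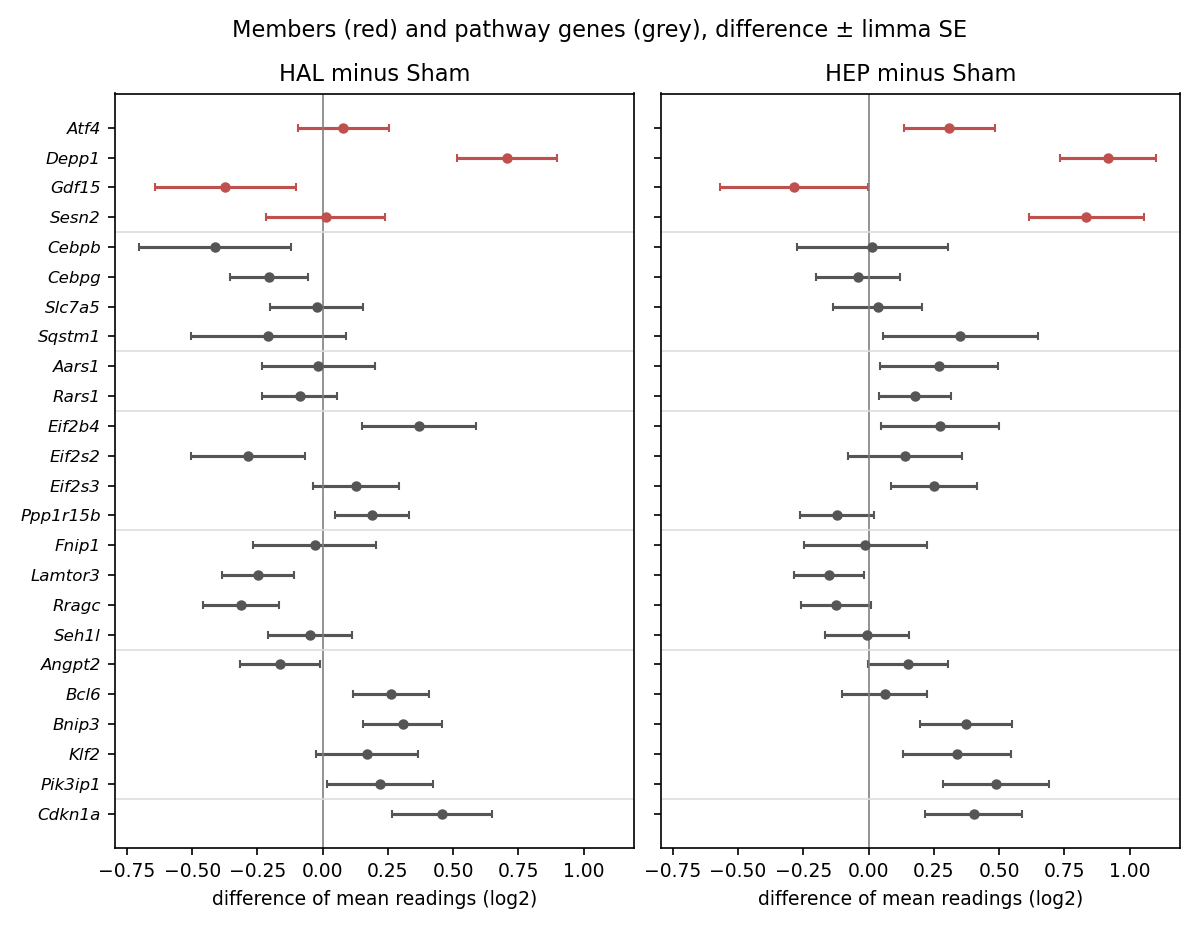
Difference of mean readings (log2) from Sham in HAL (left) and HEP (right) for the 4 genes (red, descriptive) and the 20 pathway genes tested near 10 (grey), with limma's SE as bars and lines between the lists. Depp1 at 0.71 and 0.92 and Sesn2 at 0.83 in HEP lie further from 0 than any grey point. The 4 genes were chosen by these same differences, so this contrast with the grey points carries no weight. None of the grey genes was called.

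In the near-10 readings the 4 genes did not move as 1 group. Readings of Sesn2 and Atf4 correlated with a Pearson r of 0.63 over 20 arrays, those of Sesn2 and Depp1 with 0.29 over 20, and those of Depp1 and Atf4 with 0.07 over 18. Gdf15 had an r of -0.20 with Sesn2 over 19 arrays, -0.23 with Depp1 over 17 and -0.10 with Atf4 over 16. Every r of Gdf15 rests on near-10 readings, which its digits fitted worse than signals below 10. All r values include the group differences, and arrays share their normalisation, so they are a description. The genes whose readings followed Sesn2 most closely among 1480 were Plec (r = 0.72), Azin1 (0.71) and Msmo1 (0.68), over 19 arrays each. For Depp1 they were Adamts9 (r = 0.75 over 20 arrays), Zfp869 (0.71 over 18) and Hopx (0.67 over 19) among 1109 genes. For Atf4 they were Plec (r = 0.83 over 18 arrays), Mfng (0.81 over 19) and Emc2 (0.80 over 20) among 1099. For Gdf15 they were Brd10 (0.72), Plxna1 (0.60) and Sec14l1 (0.60) over 18 arrays each among 522.

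The preparation had the markers of its label. Of 9 endothelial markers with a probe, 9 were at 10 or above on all arrays, among them Cldn5 and Pecam1, against 4 of 9 pericyte and smooth muscle, 3 of 7 astrocyte, 1 of 5 oligodendrocyte, 0 of 10 neuron, 0 of 8 microglia and 0 of 7 hepatocyte markers. Near 10, 10 markers of these other cells were tested, and limma called 0 of them in any comparison. Of all genes tested near 10 it called 3.8% in HAL minus Sham, 2.82% in HEP minus Sham and 0% in HEP minus HAL. At an unadjusted limma p of 0.05 the markers numbered 0, 2 and 0, beside 17.7%, 15.9% and 9.26% of all genes. With shares this low, 0 calls among 10 markers say little about the mix of cells. In HEP minus Sham the pericyte and smooth muscle genes tested, Abcc9 and Kcnj8, differed by 0.23 to 0.54, and the oligodendrocyte genes Cnp and Mobp by -0.67 to -0.09. In HAL minus Sham the same pairs differed by -0.03 to 0.23 and by -0.20 to -0.09. The astrocyte genes Aqp4 and S100b differed by 0.06 to 0.32 in HEP minus Sham and by -0.14 to 0.18 in HAL minus Sham. The neuron genes Gad1, Snap25 and Stmn2 differed by -0.25 to 0.24 and by -0.21 to 0.16. Ttr, from the hepatocyte list, differed by -0.19 and 0.03. The part of these cell types in the Depp1 and Sesn2 differences was not tested, and in such bulk RNA fewer cells of a type and less RNA per cell cannot be told apart. The median reading of an array ran from 9.96 to 10.20 in HAL, from 10.14 to 10.22 in HEP and from 10.10 to 10.21 in Sham.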

How the data were processed

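RNA was measured on 1 array per sample. The authors made the normalised log2 signals with RMA (no version stated), per the submitters' processing notes. The labelling kit was one for whole-transcript arrays, per the labels' protocols, while the probe names are those of a 3' expression array, and this was not resolved. The deposited values, as provided here, are whole numbers, here treated as log2 decimals that lost their leading and trailing zeros. This unit differs from the one planned, but the tests were kept on the log2 readings. Of the near-10 readings 13.5% were missing.

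Where a gene had several near-10 probes, the one with the highest mean was used, and at least 2 readings per group were required. limma 3.58.1 in R 4.3.3 was fitted over all 24 arrays with group means and eBayes without trend, and p-values were adjusted by Benjamini-Hochberg over all genes tested. For limma, unwrapped decimals were used for probes with a resultant length of at least 0.6, where 1 means that all arrays agree. Those of Depp1 (0.49) and Atf4 (0.29) are under this limit and were given only as a description. The near-10 digit model used group means from 9 to 12 in steps of 0.02 and SDs of 0.05 to 0.6. Python 3.11.15 with numpy 2.4.6, pandas 2.3.3 and scipy 1.17.1 read the digits. The reading, the test and the models were tested on simulated data.

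Members, gene lists and readings were chosen with earlier results of these data known. Besides all probes of the 4 genes, the rule named each called pathway gene or else, per list, the one of the smallest unadjusted p in HEP minus Sham, and for each of the 4 the 3 genes of highest r over at least 18 arrays. Aars1, Slc7a5, Cebpg, Cebpb, Rragc, Bnip3 and Klf2 were named after their values were seen. No columns were identical. Same-numbered arrays of different groups correlated at -0.07 to 0.15 after removal of group means, above 0.1 in 3 of 24 pairs, so numbers were not taken to pair arrays.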

Additional observations from a re-analysis of the deposited data

Results flagged for a closer look

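In groups of 5 to 8 arrays, 3 of the 15 groups of values tested held an array apart from the others by Dixon's criterion. The usual rate of about 1 in 20 groups by chance does not apply to near-10 readings, which jump with the number of digits of a cell. For Sesn2 (first probe) the HAL array of replicate 6 read 10.55, the next highest being 9.70, and the HEP array of replicate 3 read 9.77, the next lowest being 10.28. For Gdf15 the HEP array of replicate 6 read 10.88, the next highest being 9.87. The HAL array of Sesn2 and the HEP array of Gdf15 had cells of 8 digits where the others read had 9, and the HEP array of Sesn2 had a cell of 9 digits where the others had 8. Read as below 10, the HAL array of Sesn2 lay at 0.05 in a group from -0.39 to 0.35. The HEP array of Gdf15 lay at 0.88 in a group from 0.66 to 1.00. The HEP array of Sesn2 was still the lowest of its group, at -0.23.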

How the results depend on the processing

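The differences of the 4 genes moved by less than 1 SD in 240 of 240 recalculations with an array left out, and in 107 of 111 others. Leaving out 1 array cannot move a group mean as far as that, so the 240 were fixed in advance and carry no weight. Small differences could change sign with an array left out, such as HAL minus Sham of Sesn2 (-0.15 to 0.16) and of Atf4 (-0.0074 to 0.21). The same held for HEP minus HAL of Gdf15 (-0.13 to 0.30) and all 3 differences of the second Sesn2 probe. The exceptions all came from reading every cell as below 10, an alternative chosen after seeing the data: Sesn2 gave -0.091 in HEP minus Sham and 0.062 in HEP minus HAL, and Depp1 gave 0.024 in HAL minus Sham and -0.058 in HEP minus Sham. With an array left out, HEP minus Sham ran from 0.77 to 0.98 for Sesn2, from 0.84 to 1.06 for Depp1, from 0.22 to 0.44 for Atf4 and from -0.51 to -0.20 for Gdf15, and HAL minus Sham from 0.63 to 0.85 for Depp1. The range of 3 to 12 cells of 9 digits leaves Sesn2 out. The genes called in HAL minus Sham, 66, became 0, 22, 0 and 0 in the unwrapped readings (as used, at resultant lengths of 0.5 and 0.8, and without short cells) and 37 without the 3 arrays of lowest median reading (added after seeing the data). Those in HEP minus Sham, 49, became 32 with 3 to 12 cells of 9 digits, 32 with only the 2 groups compared, and 0, 0, 0 and 0 in the unwrapped readings, which test other genes. Leaving out an array gave 22 to 113 in HEP minus Sham, where it was 30, 29, 29, 23 and 22 without the HEP arrays of replicates 3, 4, 5, 6 and 7 and 113 without replicate 8. It gave 0 to 1 in HEP minus HAL (Adtrp, without HAL replicate 7), and 0 to 1 pathway genes in HAL minus Sham (Lamtor3, without HAL replicate 5). With arrays centred on their median, 42 of 82 calls in HAL minus Sham were higher in HAL, against 21 of 66 without. Replicate numbers do not pair the arrays. With the number as a replicate block the calls were 63 in HAL minus Sham, 41 in HEP minus Sham and 0 in HEP minus HAL, Sesn2 was 0.83 in HEP minus Sham, and Depp1 was 0.95 in HEP minus Sham and 0.69 in HAL minus Sham. The cause of these shifts was not tested. Signal over background is not known from decimals.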
